A study of Homo sapiens with 12 samples.

Results

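The genes described here were 10 components of the Notch pathway, taken from the 58037 gene identifiers of a deposited table of raw counts by cutting the version from each Ensembl ID and matching the rest to a symbol. They were the receptors NOTCH1, NOTCH2 and NOTCH3, the ligands JAG1, JAG2 and DLL1, the targets HES1, HEY1 and NRARP, and the DNA-binding protein RBPJ. All 10 were found, each as 1 row. RNA-seq had been performed on 2 androgen-independent prostate cancer cell lines, each stably carrying a tet-inducible shRNA against MUC1. DU-145 is a human prostate cancer line that grows without androgens, and LNCaP-AI cells were derived from C4-2B cells, a line of the LNCaP lineage, by long-term growth without androgens. The 12 samples were 3 of DU-145/tet-MUC1shRNA cells with vehicle, 3 of these cells with doxycycline (DOX), and the same 2 groups of 3 for LNCaP-AI/tet-MUC1shRNA cells. According to the methods, DOX was given at 500 ng/ml for 7 days and the vehicle was DMSO. All groups carried the same hairpin, and the labels give charcoal-stripped serum for both lines, whereas the methods name it for LNCaP-AI cells only. The labels name the groups shCTL and shMUC1, whereas the design text gives vehicle and DOX treatment of cells with the MUC1 hairpin, and the latter names are used. Cells with a control hairpin and DOX were not analysed here, so the effect of DOX itself and that of MUC1 silencing cannot be told apart. Cells were cultured in triplicate. The methods state for the study's experiments in general that distinct samples were used, but do not say how these 3 cultures were set up, so the p-values measure the spread between these samples, which may be partly technical.

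Notch receptors are single-pass membrane proteins that are switched on by ligands of the Jagged and Delta-like families on neighbouring cells. Ligand binding lets ADAM10 or ADAM17 and then γ-secretase cut the receptor, and the released intracellular domain enters the nucleus. There it binds RBPJ together with a Mastermind-like coactivator and switches on target genes, among them the HES and HEY repressors and NRARP, which encodes a feedback inhibitor of the complex. In the prostate the pathway takes part in the balance between basal and luminal epithelial cells.

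The binding motif of RBPJ is usually written TGGGAA in its core. It was searched on both strands in the RefSeq promoters (GRCh38.p14, 250 bases before to 50 bases after the annotated start) of the 8 genes with an entry, DLL1 and HEY1 having none in the table used. These 8 genes had 12 promoters, of which 2 held the motif, 1 of HES1 and 1 of the 5 of RBPJ. Of all 35116 promoters of 300 bases in the table, 24% held TGGGAA and 6.25% held the longer GTGGGAA, which contains it. HES1 is shown because it is the classical RBPJ target, is among the genes that changed in DU-145 cells, and carried the motif 2 times in the same orientation, starting 84 and 70 bases before the transcription start. Its 150 bases upstream of the start, at chr3:194135998-194136147 on the forward strand and outside annotated exons, are printed with the motif in capitals.
HES1: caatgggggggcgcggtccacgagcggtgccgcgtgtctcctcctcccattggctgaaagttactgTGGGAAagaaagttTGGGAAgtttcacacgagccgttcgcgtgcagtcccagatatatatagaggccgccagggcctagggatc
RBPJ itself carried 2 matches in opposite orientation, at chr4:26319619-26319648 and chr4:26319662-26319691 on the forward strand, given with their 12 flanking bases on either side.
RBPJ upstream match: ggtttaggaaatTTCCCAcggccgtgttgt
RBPJ downstream match: agtggaaggcggTGGGAAggaggtgtagcg
Only exact matches to the core were searched, so sites that differ from it are not marked. These matches describe sequence only, and no binding was measured in these samples.

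Depth differed between the lines and limited the precision of low counts. Total counts ranged from 10423437 to 13544153 in DU-145 samples and from 16569613 to 26961777 in LNCaP-AI samples, and counting intervals cover counting error only, since the counts carry no molecular identifiers. MUC1, the target of the hairpin, had 74, 60 and 59 counts with vehicle and 3, 3 and 3 with DOX in DU-145 cells, 21.8-fold lower (95% exact counting interval 11.2 to 48.4). In LNCaP-AI cells it had 36, 25 and 52 counts with vehicle and 8, 6 and 3 with DOX, a log2 fold change of -2.50 (SE 0.33, edgeR adjusted p = 0.0139). Among markers, KLK3, KLK2, FOLH1 and HOXB13 were at 0 counts in all 6 DU-145 samples, whereas these 4 LNCaP lineage markers summed to between 967.1 and 2392 CPM (counts relative to library size, TMM-normalized) in LNCaP-AI samples. The 5 markers listed for DU-145 (VIM, CAV1, EGFR, KRT5 and TP63) summed to 1548 to 1979 CPM there, although KRT5 and TP63 had at most 6 and 2 counts in any DU-145 sample. The 3 leukocyte markers summed to at most 0.243 CPM in any sample. The 4 stromal and endothelial markers (COL1A1, COL3A1, PECAM1 and VWF) summed to 2.05 to 5.05 CPM in DU-145 and to 21.4 to 29.6 CPM in LNCaP-AI samples.

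The main axis of variation among LNCaP-AI samples was not the treatment. A principal component with 82.49% of the variance put vehicle 1 together with DOX 2 and DOX 3 (named side A), and DOX 1 together with vehicle 2 and vehicle 3 (side B). The 5 markers listed for DU-145 summed to 129.4 to 145.5 CPM on side A and 452.6 to 506.4 on side B. KRT5 had 0 to 1 count on side A and 789 to 1434 counts on side B. It had at most 6 counts in any DU-145 sample, so its level on side B was not that of DU-145 cells. CAV1, EGFR and TP63 were also higher on side B without overlap. VIM overlapped between the sides, with means of 46.5 CPM on side A and 36.6 on side B. The 4 LNCaP lineage markers summed to 1490 to 2392 CPM on side A and 967.1 to 1843 on side B. Among them HOXB13 was higher on side A without overlap (367.3 to 380.5 CPM against 228.1 to 272.6), whereas KLK3, KLK2 and FOLH1 overlapped. The sum of the 4 epithelial markers (KRT8, KRT18, EPCAM and CDH1) was 1228 to 1446 CPM on side A and 1302 to 1607 on side B. Of these 4, EPCAM was lower on side A (105.3 to 117.8 CPM against 213.5 to 237.2) and CDH1 higher (664.9 to 697.9 CPM against 487.3 to 578.3), without overlap. The stromal and endothelial sum overlapped between the sides (23.4 to 29.2 CPM on side A, 21.4 to 29.6 on side B), as did COL1A1 and VWF. PECAM1 had 0 to 1 count on side A and 36 to 72 on side B, whereas COL3A1, at 3 to 15 counts, was higher on side A in CPM. No label gives a batch that matches the sides. Results for LNCaP-AI cells are therefore given over all 6 samples and within each side, and the part of the sides in them was not tested beyond that.

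With vehicle, most of the 10 genes stood at a higher level in LNCaP-AI than in DU-145 cells. Of the 10 genes, 8 were higher in LNCaP-AI cells and 0 were lower by edgeR's quasi-likelihood test with Benjamini-Hochberg adjustment, against 37.6% of all 16800 genes tested that were higher and 28.7% that were lower. The median log2 difference over the 10 genes was 1.75, and over all genes tested 0.14. RBPJ (log2 difference 0.01) and HEY1 (1.24) were the 2 genes not called. DLL1 is included, although it reached the minimum of 10 counts in 3 samples only through LNCaP-AI samples, where it was higher. At a minimum of 1 CPM in 3 samples DLL1 was left out, and 7 of the 9 genes tested were higher and 0 lower. That fit called 5898 of 15294 genes tested as higher and 4621 as lower. The lines also differ in growth history and may have been prepared separately, which cannot be told apart from the line itself. In bulk RNA, fewer cells that express a gene and less of its RNA per cell cannot be told apart either. Of 57 tested genes of a wider Notch pathway list of 62, 22 were higher and 17 lower in LNCaP-AI cells, and of its 9 genes of receptor cleavage 0 were higher and 6 lower.

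Compared per exon length (RPKM, the TMM-normalized level divided by the union of GENCODE exons), RBPJ and JAG2 led in DU-145 cells with vehicle, at 7.97 ± 0.907 and 7.76 ± 0.533 RPKM (SD, n = 3), and their ranges overlapped. NOTCH2 and HES1 followed at 5.57 ± 0.311 and 2.58 ± 0.111 RPKM, each apart from its neighbours. NRARP, NOTCH3 and NOTCH1 came next at 1.60, 1.52 and 1.35 RPKM, with overlapping ranges. JAG1 (0.450 RPKM), HEY1 (0.101 RPKM) and DLL1 (0 RPKM) closed the order without overlap. In LNCaP-AI cells with vehicle, JAG2, NRARP, HES1, JAG1, NOTCH2 and RBPJ lay between 10.9 and 8.05 RPKM and each overlapped the next in the order. NOTCH3 and NOTCH1 followed at 5.71 and 4.09 RPKM with overlap, and HEY1 and DLL1 stood last at 0.240 and 0.101 RPKM, again with overlap. With DOX, JAG1 was sixth in DU-145 cells at 1.16 RPKM, above NOTCH1 (0.973 RPKM) and NOTCH3 (0.633 RPKM), whose ranges did not overlap with it or each other. In LNCaP-AI cells with DOX, JAG1 led the order at 14.3 RPKM, and its range overlapped that of HES1 at 11.8 RPKM.

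**Figure D1:**
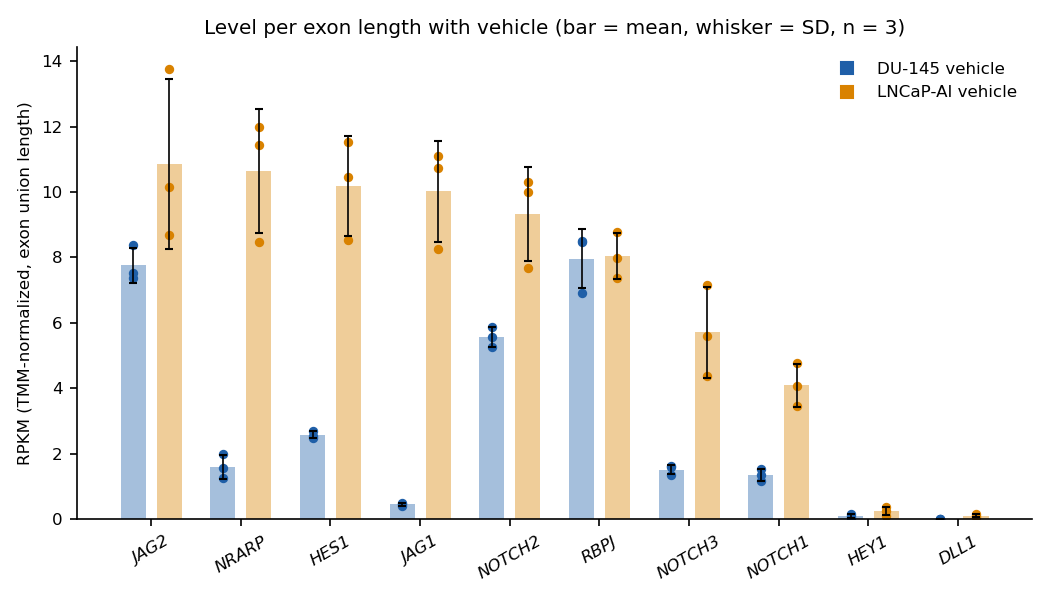
Level of each Notch gene with vehicle in RPKM (vertical axis, TMM-normalized and divided by exon length) in DU-145 (blue) and LNCaP-AI cells (orange), with the mean as a bar, the 3 samples as points and the SD as a whisker. RBPJ lies at 7.97 and 8.05 RPKM in the 2 lines, whereas JAG1 lies at 0.450 RPKM in DU-145 and 10.03 RPKM in LNCaP-AI cells.

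JAG1 showed the largest measurable line difference of the 10 genes, from 4.18, 3.85 and 4.54 CPM in DU-145 to 76.8, 103.2 and 99.8 CPM in LNCaP-AI cells with vehicle (log2 difference 4.47, SE 0.143, edgeR adjusted p = 2.68e-09). NRARP (2.72), HES1 (1.98), NOTCH3 (1.91) and NOTCH1 (1.60) differed by more than 1.5 on the log2 scale, and NOTCH2 (0.74) and JAG2 (0.48) by less. The call for JAG2 was lost without DU-145 vehicle 2, DU-145 vehicle 3 or LNCaP-AI vehicle 1 (log2 differences 0.46, 0.44 and 0.28, edgeR adjusted p = 0.064, 0.0705 and 0.0794). HEY1 gained a call without DU-145 vehicle 1 or LNCaP-AI vehicle 1 (log2 differences 1.81 and 1.60, edgeR adjusted p = 0.0396 and 0.0173). DLL1 had 0 counts in every DU-145 vehicle sample and 13, 5 and 9 in the LNCaP-AI vehicle samples. Against a floor of 3 counts in each DU-145 library, DLL1 was at least 1.45-fold higher in LNCaP-AI cells. The exons of DLL1 share 370 bases with FAM120B on the other strand, and how the counting treated strand is not given in the sources used here.

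In DU-145 cells DOX was accompanied by lower levels of all 3 receptors, of JAG2 and of HES1, and by a higher level of JAG1. A minimum of 10 counts in 3 or more samples was met by 8 of the 10 genes. Among these 8, 5 were lower and 1 was higher with DOX, where 25.3% of all 13644 genes tested were lower and 26.3% higher. Vehicle and DOX samples did not overlap for 6 of the 8, against 57.3% of all genes tested. Over the 8 genes the median log2 fold change was -0.38, compared with 0.0006 over all genes tested. The 4 epithelial markers moved with the treatment, from a sum of 868.5 to 932.9 CPM with vehicle to 1997 to 2132 CPM with DOX, and their part in these results was not tested.

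NOTCH3 had the largest decrease among the receptors. It stood at 14.9, 15.2 and 12.7 CPM with vehicle and at 5.66, 7.33 and 4.88 CPM with DOX. Every DOX sample lay well below every vehicle sample (log2 fold change -1.24, SE 0.150, edgeR adjusted p = 1.33e-06). NOTCH1 stood at 17.0, 19.2 and 14.7 CPM with vehicle and at 11.3, 12.8 and 12.4 CPM with DOX, again without overlap (log2 fold change -0.46, SE 0.121, edgeR adjusted p = 0.00354). NOTCH2, the most abundant receptor per length, went from 98.5, 93.3 and 88.1 to 80.0, 75.7 and 69.9 CPM (log2 fold change -0.30, SE 0.0731, edgeR adjusted p = 0.00181). The NOTCH2 call was lost when all 12 samples entered 1 fit (log2 fold change -0.31, edgeR adjusted p = 0.19). NOTCH2NLA, a partial copy of NOTCH2, had 0 to 11 counts per sample, and how reads shared between the copies were counted is not given in the sources used here. The share of NOTCH3 in the summed RPKM of the 3 receptors was 17.9% ± 0.596 with vehicle and 10.3% ± 1.72 with DOX (SD, n = 3), and that of NOTCH2 was 66.1% ± 1.93 and 73.7% ± 2.29. Neither share overlapped between the groups, and each gave p = 0.1 in the two-sided exact permutation test, the smallest value 3 against 3 samples allow.

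The ligands moved in opposite directions. JAG1 stood at 4.18, 3.85 and 4.54 CPM with vehicle and at 11.99, 10.7 and 9.67 CPM with DOX. The lowest DOX sample exceeded the highest vehicle sample by a wide margin (log2 fold change 1.36, SE 0.156, edgeR adjusted p = 6.61e-07). JAG2, the main ligand of these cells per length, stood at 53.5, 48.2 and 47.2 CPM with vehicle and at 33.1, 36.0 and 34.6 CPM with DOX. Its groups did not overlap either (log2 fold change -0.51, SE 0.0798, edgeR adjusted p = 2.5e-05). JAG1 made up 5.50% ± 0.608 of the summed RPKM of the 2 Jagged ligands with vehicle and 17.7% ± 1.99 with DOX (SD, n = 3; exact permutation p = 0.1, the smallest possible). JAG2 thus stayed the larger of the pair in every DU-145 sample. DLL1 had 0, 0 and 0 counts with vehicle and 1, 1 and 0 with DOX, below what could be tested.

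Among the targets, HES1, which encodes a repressor of differentiation genes, stood at 5.25, 5.57 and 5.12 CPM with vehicle and at 3.21, 2.60 and 2.22 CPM with DOX. The groups were clearly apart (log2 fold change -0.98, SE 0.20, edgeR adjusted p = 0.000411), on 64, 55 and 61 counts against 34, 33 and 25. NRARP had 64, 33 and 49 counts with vehicle and 35, 65 and 27 with DOX. Its DOX 2 sample exceeded 2 of the vehicle samples in CPM and lay just below the third, and no change was called (log2 fold change -0.22, SE 0.246, edgeR adjusted p = 0.481). Without DOX 3 the NRARP log2 fold change was 0.0016. HEY1 had 11, 5 and 3 counts with vehicle and 8, 6 and 5 with DOX and did not pass the filter. RBPJ stood at 129.9, 106.0 and 130.1 CPM with vehicle and at 110.3, 111.8 and 99.9 CPM with DOX. Its groups overlapped through vehicle 2 (log2 fold change -0.18, SE 0.0809, edgeR adjusted p = 0.0699). Without vehicle 2 it was called (log2 fold change -0.27, edgeR adjusted p = 0.000667).

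**Figure D2:**
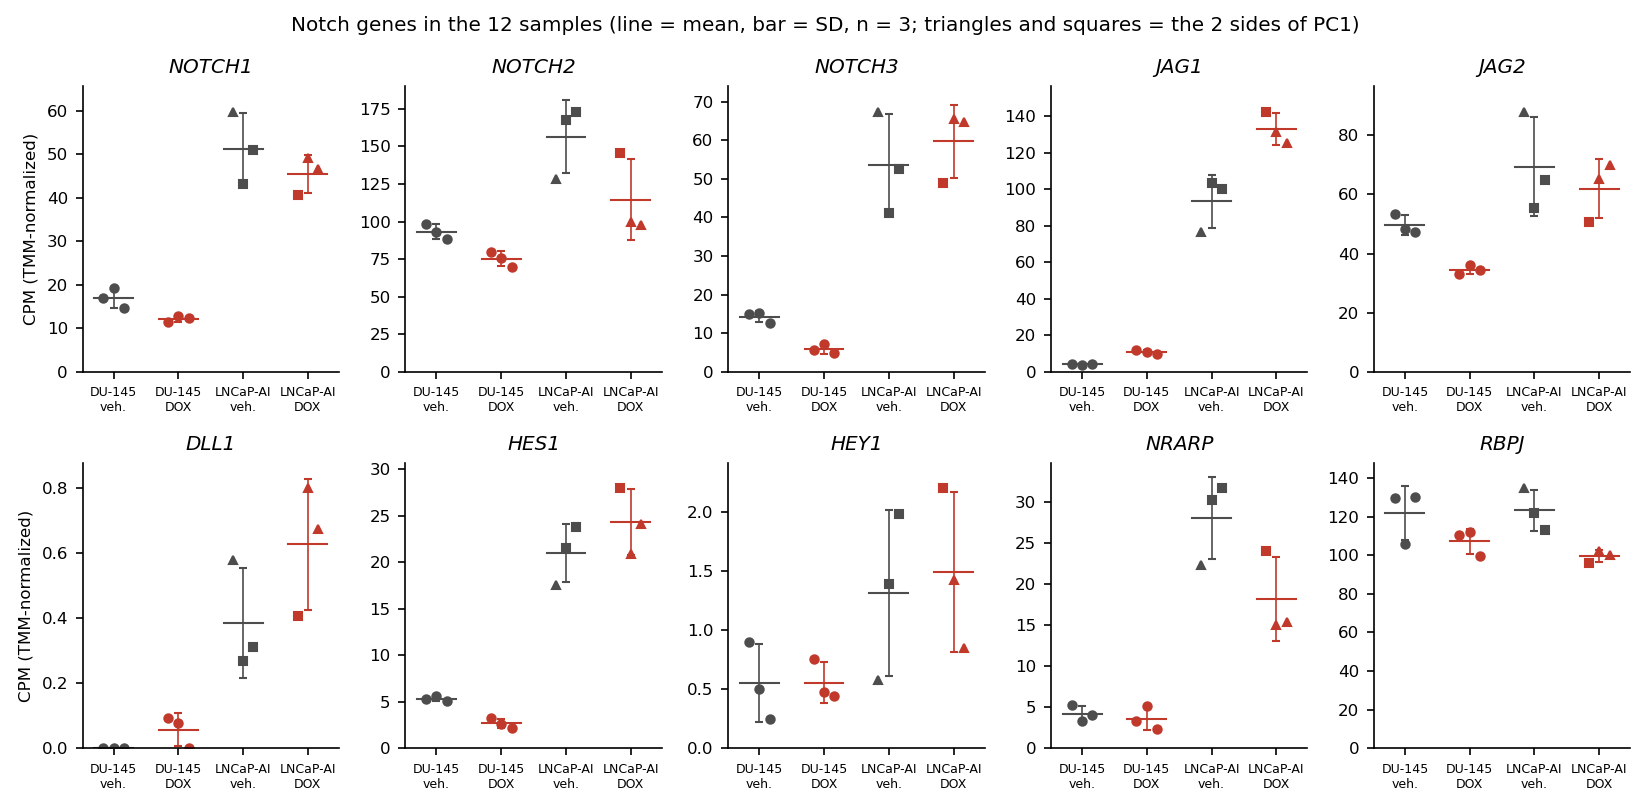
Level of each of the 10 Notch genes in CPM (vertical axes, linear and from 0, scaled per gene) in the 12 samples, grouped by line and treatment (grey, vehicle; red, DOX), with the mean as a line and the SD as a bar (n = 3). Triangles mark LNCaP-AI samples on side A and squares those on side B of the main principal component. In DU-145 cells the groups of NOTCH1, NOTCH2, NOTCH3, JAG1, JAG2 and HES1 do not overlap, and in LNCaP-AI cells only those of JAG1 and RBPJ do not.

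In LNCaP-AI cells none of the 10 genes passed the test over the 6 samples. All 10 were tested, and 0 were higher and 0 lower with DOX by edgeR's quasi-likelihood test, where 7.22% of 16030 genes tested were higher and 5.52% lower. At an unadjusted p under 0.05 there were 4, namely NOTCH2, JAG1, NRARP and RBPJ, against 31.2% of all genes tested. DESeq2 called 3, namely JAG1, NRARP and RBPJ, against 22.2% of the genes to which it gave an adjusted p, so that neither count stood far from the share over all genes. Vehicle and DOX samples did not overlap for 2 of the 10, against 38.1% of all genes tested. Over the 10 genes the median log2 fold change was -0.04, compared with -0.05 over all genes tested. The 4 LNCaP lineage markers summed to 967.1 to 1490 CPM with vehicle and 1843 to 2392 CPM with DOX, although HOXB13 overlapped. The 4 epithelial markers summed to 1228 to 1339 and 1413 to 1607 CPM. Of these, only KRT8 separated the groups (225.1 to 353.2 CPM with vehicle, 375.2 to 469.3 with DOX). KRT18 and CDH1 overlapped, and EPCAM overlapped with a lower mean with DOX (185.3 CPM with vehicle, 150.3 with DOX). The part of these markers in the values below was not tested.

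JAG1 came closest to the threshold. It stood at 76.8, 103.2 and 99.8 CPM with vehicle and at 142.2, 131.1 and 125.4 CPM with DOX. The DOX samples were all above the vehicle samples (log2 fold change 0.49, SE 0.124, edgeR adjusted p = 0.0541), and the difference was 0.74 within side A and 0.49 within side B. JAG2 stood at 87.9, 55.5 and 65.0 CPM with vehicle and at 50.8, 65.3 and 69.9 CPM with DOX. Its groups overlapped and the sides did not, side A being the higher (log2 fold change -0.20, SE 0.213, edgeR adjusted p = 0.584). JAG1 was 48.3% ± 9.66 of the summed RPKM of the 2 Jagged ligands with vehicle and 59.7% ± 5.50 with DOX (SD, n = 3; exact permutation p = 0.2), with overlap. DLL1 had 13, 5 and 9 counts with vehicle and 10, 14 and 12 with DOX.

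Of the receptors in LNCaP-AI cells, NOTCH2 stood at 128.5, 167.6 and 172.9 CPM with vehicle and at 145.8, 100.0 and 97.7 CPM with DOX. DOX 1 lay among the vehicle samples (log2 fold change -0.47, SE 0.193, edgeR adjusted p = 0.158), and the values within the sides were -0.38 and -0.22. Without DOX 1, the only DOX sample of side B, it was called (log2 fold change -0.66, edgeR adjusted p = 0.033). That fit sets DOX samples of side A alone against vehicle samples of both sides, and NOTCH2 was higher on side B. The fit called 3538 of 14980 genes tested, and the part of the sides in the call was not tested. NOTCH1 (log2 fold change -0.21, SE 0.150) and NOTCH3 (0.12, SE 0.216) had edgeR adjusted p = 0.41 and 0.726. NOTCH3 stood at 67.4, 41.2 and 52.6 CPM with vehicle and at 48.9, 65.7 and 64.8 CPM with DOX, so that its 3 highest samples were those of side A. Within the sides its log2 values were -0.05 and 0.06.

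HES1 in LNCaP-AI cells stood at 17.6, 21.6 and 23.8 CPM with vehicle and at 27.9, 20.9 and 24.1 CPM with DOX. The groups overlapped (log2 fold change 0.19, SE 0.158, edgeR adjusted p = 0.476), while the DOX samples were above vehicle within each side, by 0.36 and 0.30. NRARP stood at 22.4, 30.2 and 31.7 CPM with vehicle and at 24.0, 15.0 and 15.4 CPM with DOX. Only DOX 1 overlapped the vehicle range (log2 fold change -0.65, SE 0.232, edgeR adjusted p = 0.117), and without it NRARP was called (log2 fold change -0.89, edgeR adjusted p = 0.0247). NRARP too was higher on side B, from which that fit holds no DOX sample, and its values within the sides were -0.56 and -0.36. HEY1, with 13, 26 and 57 counts with vehicle and 54, 25 and 15 with DOX, had no call and reversed its sign without vehicle 1 or without DOX 1. RBPJ stood at 134.6, 122.0 and 113.1 CPM with vehicle and at 96.1, 102.3 and 99.9 CPM with DOX. All 3 DOX samples were lower (log2 fold change -0.34, SE 0.0949, edgeR adjusted p = 0.0682), and the values within the sides were -0.41 and -0.29.

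Within the sides of the principal component, JAG1, DLL1, HES1 and HEY1 were higher with DOX on side A and side B. NOTCH1, NOTCH2, JAG2, NRARP and RBPJ were lower on both, and NOTCH3 differed in sign. How often all genes tested kept their sign on both sides was not computed, so no trait of the Notch genes is read from this. These within-side values rest on 3 samples each and carry no test. For 5 of the 10 genes the samples of the sides did not overlap, NOTCH2 and NRARP being higher on side B and NOTCH3, JAG2 and DLL1 on side A, against 35.2% of all genes tested. With the side as a covariate, 7 of the 10 genes were called, JAG1 and HES1 as higher and NOTCH1, NOTCH2, JAG2, NRARP and RBPJ as lower, with log2 fold changes from -0.49 for NRARP to 0.58 for JAG1. The same fit called 18.8% of all genes tested as higher and 20.3% as lower. The sides were read from the same counts, so these calls are given as a comparison only.

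**Figure D3:**
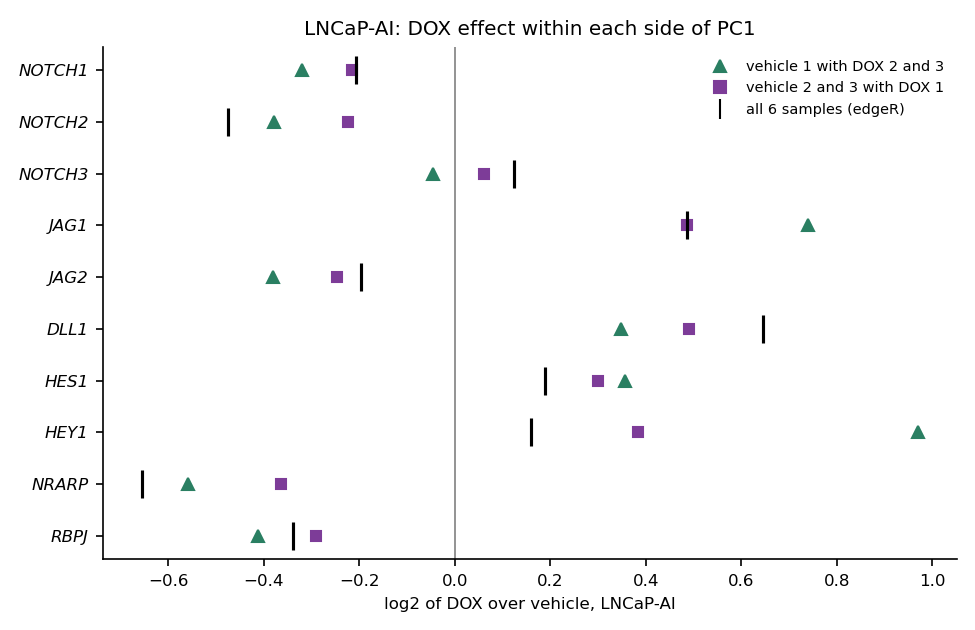
Log2 of the DOX over the vehicle level in LNCaP-AI cells (horizontal axis) for each Notch gene, within side A (triangles, vehicle 1 with DOX 2 and 3), within side B (squares, vehicle 2 and 3 with DOX 1) and over all 6 samples by edgeR (vertical bars). JAG1 lies at 0.74, 0.49 and 0.49, RBPJ at -0.41, -0.29 and -0.34, and the triangle and the square of NOTCH3 lie on opposite sides of 0.

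The DOX effect differed between the lines for 3 of the 10 genes. In the interaction test over 12 samples, 2 were higher (LNCaP-AI effect minus DU-145 effect) and 1 was lower, against 5.43% and 3.76% of all 16800 genes tested (9.18% in either direction). NOTCH3 differed by 1.41 on the log2 scale (SE 0.285, edgeR adjusted p = 0.0138), with fold changes of -1.24 in DU-145 and 0.12 in LNCaP-AI cells. HES1 differed by 1.20 (SE 0.235, edgeR adjusted p = 0.012), from -0.98 in DU-145 to 0.19 in LNCaP-AI cells. JAG1 rose in DU-145 cells by more than the difference seen in LNCaP-AI cells (interaction -0.85, SE 0.180, edgeR adjusted p = 0.017), and this call was lost without LNCaP-AI DOX 3 (interaction -0.80, edgeR adjusted p = 0.0516). With the side of the principal component as a covariate, an alternative chosen after seeing the data, the 3 interactions were 1.25, 1.32 and -0.74 and stayed called, in a fit that called 24.5% of all genes tested. With the replicate number as a block all 3 calls were lost (interactions of 1.44, 1.22 and -0.84 for NOTCH3, HES1 and JAG1, edgeR adjusted p = 0.104, 0.11 and 0.136), and 0.31% of all genes were called. Whether same-numbered cultures were set up as pairs is not known. For NOTCH1, NOTCH2, JAG2, NRARP and RBPJ the interaction lay between -0.40 and 0.36 and was not called, nor was it for HEY1 or for DLL1, which was at the floor in DU-145 cells. The change of MUC1 also differed, with log2 fold changes of -4.39 in DU-145 and -2.50 in LNCaP-AI cells (interaction 1.95, SE 0.405, edgeR adjusted p = 0.0241). MUC1 had 3 counts in each DU-145 DOX sample. The part of this difference in the results for the Notch genes was not tested.

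**Figure D4:**
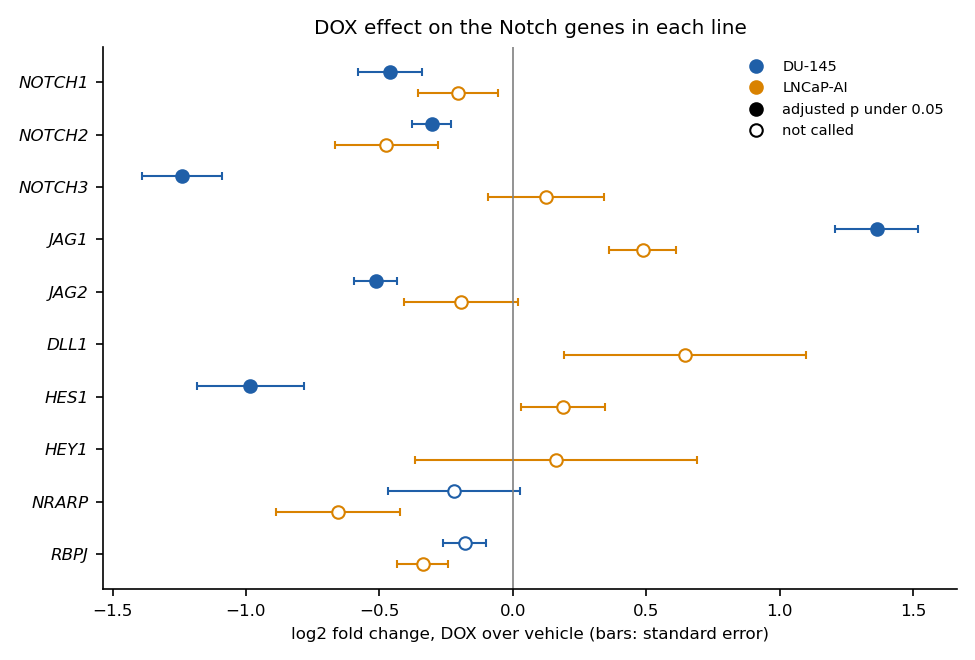
Log2 fold change of DOX over vehicle with its standard error (horizontal axis) for the Notch genes in DU-145 (blue) and LNCaP-AI cells (orange), filled where the edgeR adjusted p was under 0.05; DLL1 and HEY1 were not tested in DU-145 cells. The points of NOTCH3 (-1.24 and 0.12) and HES1 (-0.98 and 0.19) lie on opposite sides of 0, and JAG1 (1.36 and 0.49) is to the right in both lines.

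The wider pathway was read from the list of 62 genes, which includes the 10. In DU-145 cells 53 were tested, of which 14 rose and 13 fell (median log2 fold change -0.0029), close to the 26.3% and 25.3% of all genes. Among the 55 tested in LNCaP-AI cells, 3 were higher and 1 lower (median -0.04), in shares no greater than the 7.22% and 5.52% of all genes. All 4 LNCaP-AI calls were lost with the replicate number as a block and without DOX 2 or DOX 3, where 0 genes of the list were called. Of all genes tested, the same fits called 0 of 16030, 1 of 15807 and 1 of 15816, so these losses were not particular to the list.

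Of the genes that act on ligands and receptors at the membrane, NEURL1B, an E3 ligase for ligand uptake, fell in both lines. It stood at 14.3, 14.7 and 15.4 CPM with vehicle and at 3.87, 4.57 and 5.50 CPM with DOX in DU-145 cells, and at 33.7, 26.0 and 26.9 against 9.00, 9.66 and 8.57 CPM in LNCaP-AI cells. Groups were far apart in each line (log2 fold changes -1.66, SE 0.146, and -1.70, SE 0.149; edgeR adjusted p = 2.3e-08 and 0.0123). In LNCaP-AI cells the call was lost without DOX 2 or DOX 3 (log2 fold changes -1.74 and -1.65, edgeR adjusted p = 0.0854 and 0.0829). LFNG, a fringe glycosyltransferase that modifies Notch receptors, had 13, 15 and 23 counts with vehicle and 1, 1 and 2 with DOX in DU-145 cells, 12.97-fold lower (95% exact counting interval 4.77 to 49.4). In LNCaP-AI cells LFNG had 184 to 339 counts with vehicle and 164 to 214 with DOX. In CPM these groups did not overlap, at 9.85 to 14.6 with vehicle and 8.72 to 9.53 with DOX. The log2 fold change was -0.42 (edgeR adjusted p = 0.177, not called), and the values within the sides were -0.63 and -0.31. The interaction of LFNG was 3.22 (SE 0.432, edgeR adjusted p = 0.0021). DLL4, another ligand, had 5, 4 and 2 counts with vehicle and 15, 15 and 22 with DOX in DU-145 cells (log2 fold change 2.19, SE 0.440, edgeR adjusted p = 0.000373). In DU-145 cells the minimum of 10 counts in 3 samples was met by DLL4 only through DOX samples and by LFNG only through vehicle samples. Each was thus tested because of the group in which it was higher, and its result is not independent of the filter. Among the 9 genes of receptor cleavage, 4 rose and 0 fell with DOX in DU-145 cells, against 26.3% and 25.3% of all genes tested. In LNCaP-AI cells 2 rose and 0 fell, against 7.22% and 5.52%. PSENEN, a γ-secretase subunit, was among them in each line, at log2 fold changes of 0.55 (SE 0.0953, edgeR adjusted p = 7.76e-05) and 0.43 (SE 0.100, edgeR adjusted p = 0.0425).

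Of the genes that act in the nucleus or downstream, MAML2, a coactivator of the RBPJ complex, had 29, 24 and 29 counts with vehicle and 9, 10 and 4 with DOX in DU-145 cells (log2 fold change -1.84, SE 0.331, edgeR adjusted p = 0.000125). DTX4, a Deltex E3 ligase, had 65, 63 and 57 counts with vehicle and 4, 20 and 20 with DOX (log2 fold change -2.09, SE 0.298, edgeR adjusted p = 9.31e-06). Neither was called with all 12 samples in 1 fit (edgeR adjusted p = 0.0855 and 0.1). HES4 moved opposite to HES1 in DU-145 cells, from 39, 25 and 33 counts to 45, 87 and 89 (log2 fold change 1.16, SE 0.225, edgeR adjusted p = 0.000257). In LNCaP-AI cells it had -0.04, and the interaction of -1.17 (SE 0.320, edgeR adjusted p = 0.0465) was lost in 13 of 19 alternative fits. NUMB, which encodes an inhibitor of Notch, rose by 0.45 in DU-145 cells (SE 0.0649, edgeR adjusted p = 1.18e-05) and had -0.05 in LNCaP-AI cells, with an interaction of -0.47 (SE 0.0959, edgeR adjusted p = 0.0149) that was lost without LNCaP-AI DOX 3 (-0.44, edgeR adjusted p = 0.0514). DTX2 and PSEN2 were higher in LNCaP-AI cells by 0.71 and 0.36 (edgeR adjusted p = 0.0408 and 0.0438), calls that were also lost without vehicle 2 or vehicle 3, as was that of PSENEN.

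**Figure D5:**
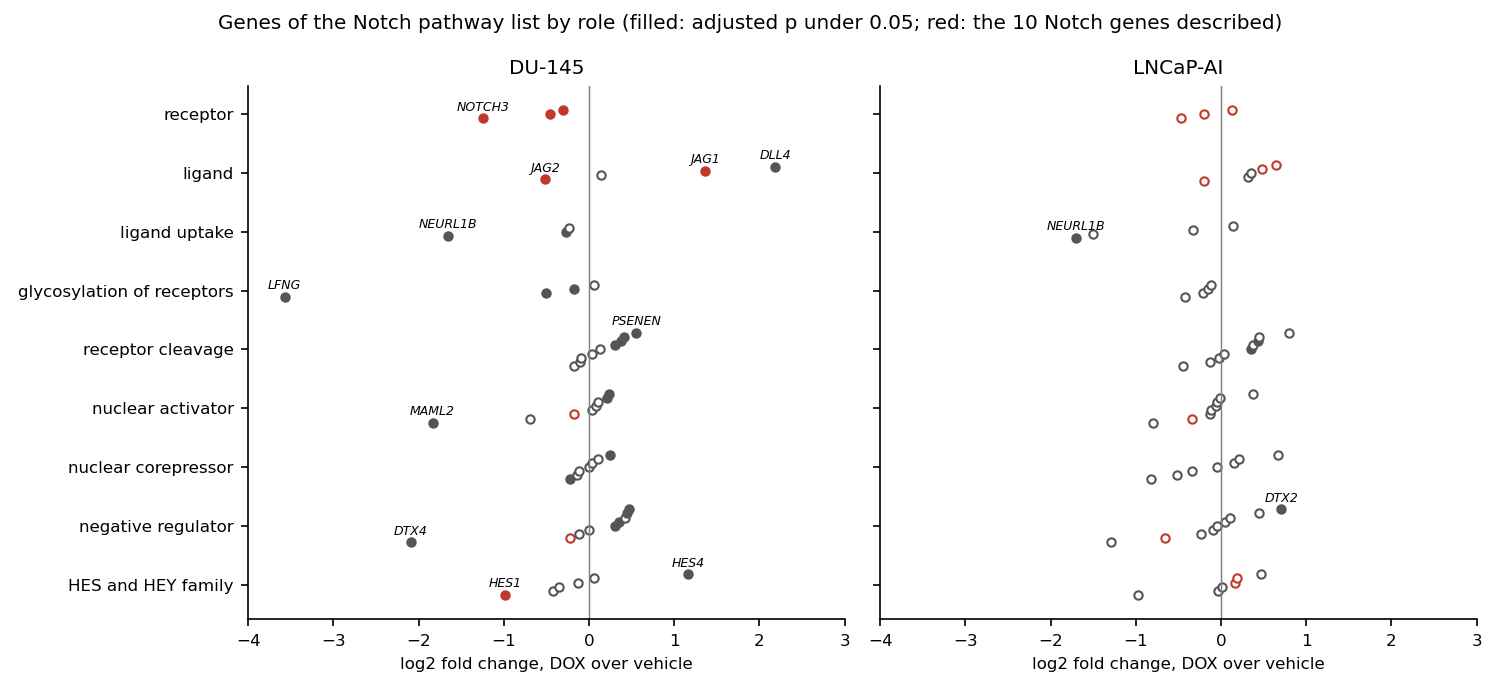
Log2 fold change of DOX over vehicle (horizontal axis) for the tested genes of the Notch pathway list, arranged by role (rows), in DU-145 (left, 53 genes) and LNCaP-AI cells (right, 55 genes). Filled points have an edgeR adjusted p under 0.05, red points belong to the 10 genes described, and called genes whose log2 fold change reached 0.5 in either direction are named; 27 points are filled on the left and 4 on the right.

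Genes that varied most like HES1 and JAG1 were sought among 8358 genes with a mean of at least 10 CPM in each line, after centring log2 CPM within each line. For HES1 these were DENND5B (Pearson r 0.96), CKAP4 (0.958) and PDXK (0.939), and for JAG1 they were MXD1 (0.989), UBE4B (0.986) and NDRG1 (0.983). These coefficients are over the 12 samples, which share the treatment contrast and, in LNCaP-AI cells, the division into sides. They are given as a description, and the part of either in them was not tested. Coordinates on GRCh38 (GENCODE release 44) of the 3 genes whose DOX effect differed between the lines are chr19:15159038-15200995 for NOTCH3, chr20:10637684-10673999 for JAG1, both on the reverse strand, and chr3:194136148-194138732 for HES1 on the forward strand.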

How the data were processed

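Total RNA of DU-145 and LNCaP-AI cells was analysed in 12 samples, 3 for each of 4 groups. The authors prepared stranded mRNA libraries, aligned reads with STAR 2.7.0 to GRCh38 (p7 per the labels; the methods write another release) and deposited the raw, unnormalized count of each gene. The counter and its handling of strand and shared reads are not given in the sources used here, so reads shared between overlapping or near-identical genes may be placed differently. Of 58037 identifiers, 56948 had a symbol.

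Genes reaching 10 counts in 3 or more samples were tested with edgeR 4.0.16 (TMM, glmQLFit, glmQLFTest, Benjamini-Hochberg adjustment, threshold 0.05; R 4.3.3) on the whole table: DOX against vehicle within each line, the interaction and the difference between lines with vehicle over all 12 samples. CPM and RPKM used TMM over 12 samples and GENCODE release 44 exon lengths. Each standard error is the log2 fold change divided by the square root of F. Shares were compared by the exact permutation test over samples (scipy). The steps were tested on simulated counts.

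The 10 genes, the pathway and marker lists and the alternatives were chosen with earlier results of these data known. Other pathway genes were named where called with a log2 fold change of 0.5 or more in either direction, up to 12 per line; PSEN2 and NUMB fall outside this rule and were chosen after their values were seen. Of the listed LNCaP lineage markers, 2 are not reported here. For likeness, the 3 highest coefficients were named. Alternatives were DESeq2, its size factors, upper-quartile scaling, other filters, a replicate block, all 12 samples in 1 fit, the side of the main principal component as covariate, and each sample left out. No 2 replicates agreed within sampling noise (smallest chi-square per degree of freedom 2.53).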

Additional observations from a re-analysis of the deposited data

Results flagged for a closer look

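The DOX effect differed between the lines in the interaction test (LNCaP-AI minus DU-145, log2 scale, edgeR adjusted p under 0.05) for 6 genes of the pathway list, of which 3 are among the 10 genes described. These were 6 of 57 tested, where 9.18% of all 16800 genes tested were called. Blocking on the replicate number left the call of LFNG and lost those of NOTCH3, HES1, JAG1, NUMB and HES4. NOTCH3 differed by 1.41, HES1 by 1.20 and LFNG by 3.22, all lower with DOX in DU-145 cells and not called in LNCaP-AI cells. JAG1 differed by -0.85, NUMB by -0.47 and HES4 by -1.17, all higher with DOX in DU-145 cells and not called in LNCaP-AI cells. The LNCaP-AI samples fell on 2 sides of the first principal component that were not the treatment groups, and LFNG rested on 4 counts in all over the 3 DU-145 DOX samples.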

How the results depend on the processing

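The count of the 10 genes called in DU-145 cells was 6 and ranged from 6 to 7 when each sample was left out, and from 5 to 7 over all 13 alternatives. In LNCaP-AI cells it was 0, and became 1 with upper-quartile normalization, 2 with all 12 samples in 1 fit, 3 with DESeq2 1.42.0 and 7 with the principal component side as covariate, with 0 to 2 when each sample was left out (2 without DOX 1). Of all genes tested, the main LNCaP-AI fit called 2043 of 16030. In the same order, these 4 alternatives called 2260 of 16030, 3933 of 16800, 3517 of 15877 and 6271 of 16030. The fit without DOX 1 called 3538 of 14980. The interaction count of 3 fell to 0 with the replicate number as a block and ranged from 2 to 3 when each sample was left out, and the count of genes differing between the lines with vehicle, 8, ranged from 7 to 9. For the pathway list, the DU-145 count of 27 was 16 with all 12 samples in 1 fit and 20 to 27 when each sample was left out. The LNCaP-AI count of 4 was 1 with no filter, 9 with DESeq2, 10 with all 12 samples in 1 fit, 24 with the side covariate, 0 with the replicate block and 0 to 13 when each sample was left out (13 without DOX 1, 7 without vehicle 1, 1 without vehicle 2 or vehicle 3, 0 without DOX 2 or DOX 3). The count over all genes shifted too. In DU-145 cells 7033 of 13644 genes were called in the main fit and 4083 of 16800 with all 12 samples in 1 fit. In LNCaP-AI cells 1752 of 32997 were called with no filter and 0 of 16030 with the replicate block. Leaving out DOX 2, DOX 3, vehicle 1, vehicle 2 or vehicle 3 gave 1 of 15807, 1 of 15816, 2173 of 15791, 1096 of 15123 and 994 of 14967. The cause of these shifts was not tested.

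For single genes, the direction and the side of the threshold were unchanged in 196 of 202 values in DU-145 cells, 192 of 237 in LNCaP-AI cells, 204 of 228 interactions and 153 of 162 line differences. Among these genes, signs reversed only for values without a call. These were NRARP in DU-145 cells without DOX 3 (0.0016, range -0.57 to 0.0016 when each sample was left out), and in LNCaP-AI cells NOTCH3 with the side covariate (-0.0295) and without vehicle 2 (-0.0448, range up to 0.33), JAG2 without vehicle 1 (0.0232, range from -0.34), HEY1 without vehicle 1 (-0.19) and without DOX 1 (-0.23, range up to 0.60), and HES4 with upper-quartile normalization (0.0211), without vehicle 1 (0.12, range from -0.18) and without DOX 1 (0.0876). Interactions reversed for NOTCH2 with the side covariate (0.0119) and for HEY1 without DU-145 vehicle 1 (-0.38), LNCaP-AI vehicle 1 (-0.16) or LNCaP-AI DOX 1 (-0.22), with a highest value of 0.64. The RBPJ line difference with vehicle reversed with DESeq2 (-0.0405), with its size factors in edgeR (-0.0393), without DU-145 vehicle 2 (-0.0835) and without LNCaP-AI vehicle 1 (-0.0484), and reached 0.0796 at most when a sample was left out.

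Same-numbered vehicle and DOX samples did not deviate together, with correlations of 0.127, -0.0912 and 0.0763 in DU-145 and -0.94, -0.812 and -0.84 in LNCaP-AI cells, so the replicate number did not pair them. With the replicate block 6 of the 10 genes were called in DU-145, 0 in LNCaP-AI cells, 0 in the interaction and 8 between the lines with vehicle, and the interactions of NOTCH3, JAG1 and HES1 were 1.44, -0.84 and 1.22 (edgeR adjusted p = 0.104, 0.136 and 0.11). The side covariate in the interaction was chosen after seeing the data. DLL1 and HEY1 lay near the detection floor in DU-145 cells, where a change was not detectable at this depth.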
